A study of Mus musculus with 13 samples.

Results

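Microglia of the mouse spinal cord were compared between the chronic phase and the peak of experimental autoimmune encephalomyelitis (EAE), in which mice immunised against myelin develop inflamed, demyelinated lesions. The cells are those that the deposited annotation calls microglia and that were sorted as resident cells, 9495 cells in 5 libraries, of 10038 cells in those libraries and 22148 cells in the series. Chronic EAE gave 3 libraries, called a, b and c here, with 1966, 2046 and 4293 microglia, and peak EAE gave 2 libraries, a and b, with 486 and 704 microglia. Resident microglia of healthy controls (3 libraries with 1769, 1149 and 3237 microglia) entered the same fit and show where each gene stood without disease. The deposited table assigns control libraries a and b to the peak stage and control library c to the chronic stage. All mice, controls included, carried the Cx3cr1YFPCreERT2:R26tdTomato alleles. In that line, Cre recombinase expressed from the Cx3cr1 locus and switched on by tamoxifen turns on the fluorescent protein tdTomato, which long-lived microglia keep, whereas monocytes turn over and their successors lack it. A Cx3cr1-driven mark also covers other long-lived Cx3cr1-expressing macrophages. Age, sex and the number of animals behind a library are not given in the sources used here. Samples of 1 group are labelled as biological replicates. Where libraries of a group are not separate animals, p-values measure only the spread between libraries.

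Microglia are the resident macrophages of the central nervous system. In the healthy cord they express homeostatic genes such as P2ry12 and Tmem119. In demyelination they are known to take up myelin debris and to switch on a disease-associated programme that includes Apoe, Spp1 and Gpnmb, and they also respond to interferon-gamma from T cells, which induces large GTPases, chemokines and, through the transactivator gene Ciita, MHC class II.

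The microglia held 6754413, 6488280 and 17965689 unique molecular identifiers (UMIs, each standing for 1 captured RNA molecule) in chronic libraries a, b and c, and 4196375 and 6332115 in peak libraries a and b. Depth per cell differed between the stages. A chronic cell had a median of 2856, 2466 and 3544 UMIs in the libraries a to c, against 8447 and 8521 UMIs in peak libraries a and b and 3635, 4476 and 3017 in control libraries a, b and c. The median mitochondrial percent of the deposited table was 0.966, 0.987 and 1.47 in chronic libraries, against 2.63 and 2.27 in peak libraries. Levels are therefore given as CPM (counts scaled to a common library total), which are relative to all RNA of the microglia of a library, and UMIs per cell are given where the comparison of the 2 scales changes the reading. In sums over the cells of a library, a gene in fewer cells and less of its RNA per cell cannot be told apart. The sequencing pool also followed the stage. Pool D held chronic a and b, pool B held chronic c and control c, pool C held both peak libraries and control b, and pool A held control a, so chronic against peak cannot be told apart from differences between pools except through the control libraries. Microglia shared few cell barcodes across libraries: 26 barcodes were found in more than 1 resident library, at most 5 for any pair of libraries.

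Microglial marker genes were found in every library, and those given here were lower in peak than in control libraries. Sall1, a transcription factor gene of microglial identity, had 314, 343 and 1658 UMIs in chronic libraries and 683 and 615 UMIs in peak libraries, and Tmem119 had 2219 to 11292 UMIs in chronic and 2479 to 3948 UMIs in peak libraries. Markers of other leukocytes were present at lower levels than the leading microglial genes and were not absent. The summed level of 12 monocyte markers was 131 to 331 CPM in chronic and 172 to 238 CPM in peak libraries. That of 10 neutrophil markers was 168 to 264 CPM and 162 to 349 CPM, and both sums were above the CPM of Sall1. Control libraries gave 19.6 to 42.5 CPM for the monocyte and 186 to 398 CPM for the neutrophil markers. Single defining genes were near 0. The T cell gene Cd3e had 1 to 7 UMIs in a chronic library and 0 and 1 in the peak libraries, the monocyte gene Ly6c2 had 0 to 3 UMIs in a chronic library and 8 and 17 in the peak libraries, and the border macrophage gene Lyve1 had 0 UMIs in all 5. Deposited cluster 1 held 19.7%, 20.7% and 62.3% of chronic a, b and c microglia, against 1.23% and 0.426% in peak a and b. Cluster 3 held 21.9%, 30.7% and 9.32% in chronic a, b and c, against 68.9% and 56.4% in peak a and b. Cluster 4 held 55.1%, 46.3% and 27.6%, against 22.6% and 35.1%, in the same order.

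Of 11078 genes tested, 1083 were higher and 1318 lower in chronic than in peak microglia, so 21.7% of tested genes were called in either direction, 9.78% higher and 11.9% lower (edgeR's quasi-likelihood test on UMIs summed per library, Benjamini-Hochberg adjusted p under 0.05). The median log2 fold change of all tested genes was 0.00. On the first principal component of log2 CPM, which held 57.6% of the variance, chronic c lay at 1.20, between chronic a and b (-45.0 and -38.0) and the controls (57.5 to 68.7), and the peak libraries lay at -49.6 and -58.3. The number called was 429 without peak a, 1222 without peak b and 1206 without chronic b. With the pool as a term, which leaves the contrast to the control libraries of pools B and C and 2 residual degrees of freedom, 70 genes were called, 0.632% of those tested, and the fold change kept its sign for 2210 of the 2401 genes.

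The genes higher in chronic microglia with the smallest p included growth factor, lipid and homeostatic genes. Igf1 (chr10:87858265-87937042, plus strand, GRCm38), which encodes insulin-like growth factor 1, reached 183, 126 and 105 CPM in chronic a, chronic b and chronic c, against 3.63 and 0.548 CPM in peak a and peak b. Control libraries were at 1.41 to 2.89 CPM, so the gene was high in chronic disease and near its control level at the peak. Its log2 fold change was 6.12 ± 0.53 (SE, adjusted p = 0.000128). Fcrls (chr3:87250758-87263738, minus strand), a receptor-like gene that marks microglia in mice, had the opposite relation to the controls. It was at 1896, 1036 and 795 CPM in chronic libraries, against 46.8 and 25.4 CPM in peak libraries, and controls were at 830.2 to 1246 CPM. The chronic libraries thus overlapped the controls and the peak libraries lay far below both, with a log2 fold change of 5.11 ± 0.48 (adjusted p = 0.000153).

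Most of the other 10 genes that the naming rule gave fall into the same 2 shapes. Colec12, a scavenger receptor, Apoc4, an apolipoprotein gene next to Apoe, and Ms4a7, a membrane protein gene that is also on the list of border macrophage markers, were low in controls and at the peak. Ms4a7 was at 82.9, 135 and 71.6 CPM in chronic libraries, against 6.59 and 6.58 CPM in peak libraries and at most 0.897 CPM in controls (log2 fold change 3.87 ± 0.42, adjusted p = 0.000257). Apoc4 was at 186, 198 and 90.8 CPM in chronic libraries, against 6.36 and 6.03 CPM in peak libraries (4.67 ± 0.53, adjusted p = 0.000285). Colec12 was higher by 4.42 ± 0.45, Crip1, a LIM domain protein gene, by 3.30 ± 0.32, and Fam20c, a kinase of secreted proteins, by 3.01 ± 0.34. The other shape, high in controls and chronic disease and low at the peak, was that of Cd300a, an inhibitory receptor, Slc40a1, which encodes the iron exporter ferroportin, Jam2, a junctional adhesion molecule, and the chemokine gene Ccl6. Cd300a was at 124, 172 and 173 CPM in chronic libraries, against 27.5 and 23.9 CPM in peak libraries and 123 to 179 CPM in controls (2.61 ± 0.27, adjusted p = 0.00022). Slc40a1 was at 26.5, 45.6 and 43.6 CPM in chronic libraries, against 6.59 and 4.93 CPM in peak libraries, and controls were above both at 88.6 to 107 CPM. Plau, which encodes the urokinase plasminogen activator, was at 123, 119.9 and 107 CPM in chronic libraries, against 19.1 and 17.7 CPM in peak libraries and 26.1 to 43.8 CPM in controls (2.66 ± 0.26, adjusted p = 0.000197). Apoe was not called without peak a (adjusted p = 0.0666).

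**Figure D1:**
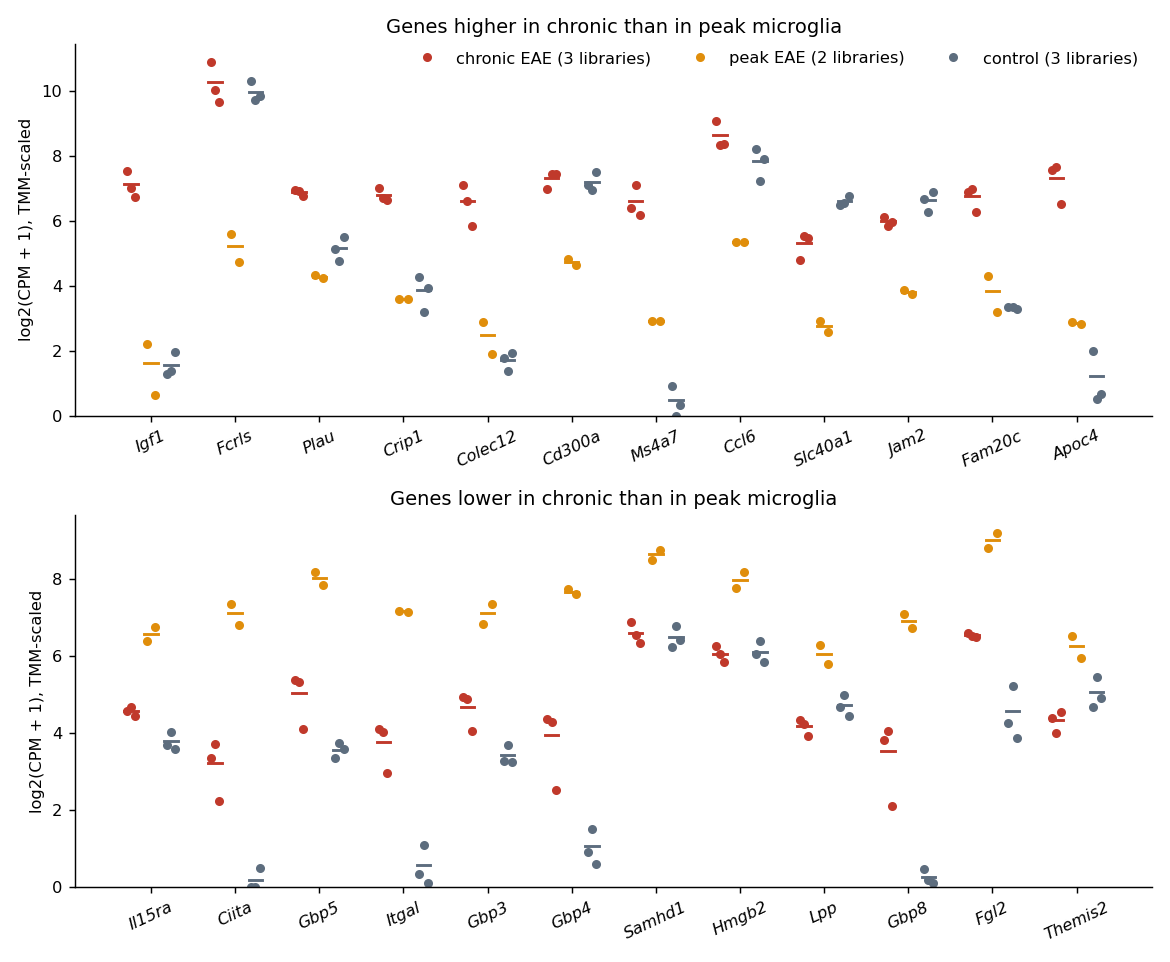
TMM-scaled CPM on a log2(CPM + 1) axis for the 12 higher and 12 lower genes of the naming rule. Each point is 1 library of chronic, peak or control microglia and each bar the group mean. The chronic points lie above both peak points in the upper panel and below both in the lower panel, which the rule required, while the place of the controls, which the rule did not use, varies from gene to gene, as for Fcrls at 830.2 to 1246 CPM and Igf1 at 1.41 to 2.89 CPM.

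Disease-associated microglial genes were higher in chronic than in peak microglia. Of 25 members tested, 15 rose and 0 fell, beside 9.78% higher and 11.9% lower of all tested genes. The median log2 fold change was 1.26 against 0.00 over all genes tested. Spp1, which encodes osteopontin, was at 6478, 5101 and 5559 CPM in chronic libraries, against 375 and 71.1 CPM in peak libraries and 34.7 to 132 CPM in controls. Peak b lay within the range of the controls, and every chronic library lay above both peak libraries. The log2 fold change of Spp1 was 4.68 ± 0.72 (adjusted p = 0.0015). Gpnmb, a lysosomal membrane glycoprotein gene, was at 520.3, 586 and 191 CPM in chronic libraries, against 9.54 and 46.9 CPM in peak libraries (3.92 ± 0.61, adjusted p = 0.00152). Controls were at 0.431 to 0.679 CPM for Gpnmb. Fabp5, a fatty acid binding protein gene, was at 1533, 1437 and 546 CPM in chronic libraries, against 33.8 and 93.5 CPM in peak libraries (4.20 ± 0.59, adjusted p = 0.000975). Lpl, which encodes lipoprotein lipase, was higher by 2.38 ± 0.46, and Ank, a pyrophosphate transporter gene, by 3.62 ± 0.43.

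Apoe, the lipid carrier apolipoprotein E, was already high at the peak. It was at 32738, 31924 and 39916 CPM in chronic libraries, against 10878 and 14682 CPM in peak libraries and 1024 to 1346 CPM in controls (log2 fold change 1.45 ± 0.30, adjusted p = 0.00775). Per cell, Apoe had a mean of 112 UMIs over chronic and 106 UMIs over peak libraries. Chronic libraries ran from 83.4 to 159 UMIs per cell and peak libraries from 98.5 to 114, so the groups overlapped per cell. Not every member moved. Itgax, an integrin gene of the programme, was at 95.8, 117 and 77.3 CPM in chronic libraries, against 109 and 54.3 CPM in peak libraries, and the groups overlapped (0.25 ± 0.28, adjusted p = 0.548). The lipid receptor gene Trem2 was at 2269 to 3425 CPM in chronic libraries, against 1608 and 1764 CPM in peak libraries, and missed the threshold (0.67 ± 0.27, adjusted p = 0.0922). Within deposited cluster 3 only, an alternative chosen after seeing the data, 12 of 25 rose with a median of 0.51 and Lpl was not called. In cluster 4 only, 8 rose with a median of 1.17. Without peak a, 9 members rose, and with the pool as a term 1 did, with a median of 1.01.

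Homeostatic genes were called in both directions: of 18 tested, 5 were higher and 2 lower in chronic microglia, with a median log2 fold change of 0.38. The shares of all tested genes were 9.78% higher and 11.9% lower, so the count lower is near that share. The purinergic receptor gene P2ry12 was at 596, 907 and 898 CPM in chronic libraries, against 322 and 263 CPM in peak libraries and 1849 to 3193 CPM in controls (1.45 ± 0.32, adjusted p = 0.00927). Gpr34, a lysophosphatidylserine receptor gene, was at 867, 926 and 1304 CPM in chronic libraries, against 139 and 159 CPM in peak libraries and 1601 to 2761 CPM in controls (2.80 ± 0.33, adjusted p = 0.000313). Cst3, which encodes the protease inhibitor cystatin C, was higher by 2.08 ± 0.36. For these 3 genes the chronic libraries lay between the peak libraries and the controls. Sall1 went the other way, at 56.1, 64.1 and 96.9 CPM in chronic libraries, against 155 and 112 CPM in peak libraries and 190.0 to 285 CPM in controls (-0.88 ± 0.29, adjusted p = 0.0434), but with the pool as a term Sall1 was at 0.12 and the list gave 2 higher and 0 lower. Tmem119 was at 397 to 660.1 CPM in chronic libraries, against 563 and 721 CPM in peak libraries (-0.27 ± 0.27, adjusted p = 0.488). Cx3cr1, the fractalkine receptor gene and the driver of the fate-mapping allele, was at 434 and 462 CPM in chronic a and b but 1343 CPM in chronic c, against 1127 and 788 CPM in peak libraries, so chronic c alone lay above the peak (-0.36 ± 0.42, adjusted p = 0.561). Without chronic c, the log2 fold change of Cx3cr1 was -1.09 (adjusted p = 0.0073). The counts higher and lower were 6 and 5 without chronic c, 3 and 0 without peak a, 3 and 1 without peak b, 4 and 0 without chronic a and without chronic b, 5 and 1 without control a and 4 and 1 without control c. Sall1 was not called without chronic a, chronic b, peak a, peak b, control a or control c (adjusted p = 0.0585 to 0.352). P2ry12 was not called without peak a or peak b (adjusted p = 0.0505 to 0.0588).

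Other lipid, lysosomal and iron genes gave fewer calls. Of 22 lipid and cholesterol genes tested, 5 rose and 1 fell (median 0.36), beside 9.78% higher and 11.9% lower of all tested genes. Apoc1, an apolipoprotein gene of the Apoe cluster, was at 189, 144 and 157 CPM in chronic libraries, against 30.9 and 36.0 CPM in peak libraries (2.29 ± 0.27, adjusted p = 0.000309). Cd36, a scavenger receptor for oxidised lipid, fell: it was at 64.7, 62.5 and 16.1 CPM in chronic libraries, against 287 and 265 CPM in peak libraries and under 1 CPM in controls (-2.55 ± 0.42, adjusted p = 0.00219). Of 20 lysosomal genes, 3 rose and 0 fell (median 0.23), near the 9.78% of all tested genes called higher, among them Ctsl, cathepsin L, with 6152, 6829 and 2879 CPM in chronic libraries against 1335 and 1857 CPM in peak libraries (1.73 ± 0.38, adjusted p = 0.00998). Ctss, cathepsin S, overlapped between the stages (0.61 ± 0.36, adjusted p = 0.236). Of 9 iron genes, 3 rose and 0 fell (median 0.50), beside the same shares of all tested genes. Fth1, the ferritin heavy chain, was higher by 1.43 ± 0.37 in CPM (adjusted p = 0.0173), with 69.0 UMIs per cell in chronic and 71.3 in peak microglia, while Ftl1, the light chain, was not called (0.09 ± 0.27, adjusted p = 0.828). Without chronic c the counts higher and lower were 7 and 2 for lipid genes, 6 and 0 for lysosomal genes and 4 and 1 for iron genes. Without peak a they were 3 and 1, 1 and 0, and 1 and 0. Without chronic b they were 3 and 1 for lipid and 1 and 0 for iron genes, for lipid genes also 3 and 1 without chronic a and 4 and 3 without control c. Fth1 was not called without chronic b or peak a (adjusted p = 0.0606 to 0.136). Ctsl was not called without peak a (adjusted p = 0.101).

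On the lower side, genes of the interferon-gamma response stood out in size. All 14 interferon-gamma inducible GTPases tested fell and 0 rose, beside 11.9% of all tested genes called lower, with a median log2 fold change of -2.55. These proteins, the guanylate-binding proteins (Gbp) and immunity-related GTPases, act against microbes inside cells. Gbp5 was at 40.6, 38.7 and 16.3 CPM in chronic libraries, against 286 and 229 CPM in peak libraries and 9.23 to 12.4 CPM in controls (-3.04 ± 0.33, adjusted p = 0.000243). Gbp3 was at 29.5, 28.2 and 15.5 CPM in chronic libraries, against 112 and 162 CPM in peak libraries (-2.51 ± 0.28, adjusted p = 0.000269). Chronic c was the lowest of the chronic libraries for both and the closest to the controls. Gbp7 was at 77.0, 85.7 and 28.6 CPM in chronic libraries, against 386 and 356 CPM in peak libraries (-2.55 ± 0.36, adjusted p = 0.000933). Tgtp1, a T cell specific GTPase gene by name, was rare, at 0.536, 0.187 and 0.0585 CPM in chronic libraries, against 7.27 and 9.13 CPM in peak libraries (-5.32 ± 0.66, adjusted p = 0.000408), and shares near-identical sequence with Tgtp2. Gbp4 and Gbp8 fell by 3.89 and 3.58 on the log2 scale, but their annotated spans overlap on chromosome 5 and family members are alike in sequence, so the split of reads between single family members is uncertain. Iigp1, an immunity-related GTPase, was at 193, 129 and 41.7 CPM in chronic libraries, against 1178 and 1072 CPM in peak libraries and 1.10 to 5.03 CPM in controls (-3.22 ± 0.55, adjusted p = 0.00262). With the pool as a term, 4 of the 14 were called lower and the median was -2.63.

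The promoters of 4 of these GTPase genes, those with the smallest p in the RefSeq promoter table, are shown because the factors that interferons activate are known to bind 2 short motifs, and that of Igf1, the disease-associated gene with the smallest p, is shown for contrast. Each runs from 250 bases before to 50 bases after the annotated start on the gene's own strand (RefSeq, GRCm38.p6), and capitals mark every match to the interferon-stimulated response element core GAAANNGAAA or the gamma-activated site TTCNNNGAA on either strand.
Gbp5 (chr3:142496684-142496983, plus strand): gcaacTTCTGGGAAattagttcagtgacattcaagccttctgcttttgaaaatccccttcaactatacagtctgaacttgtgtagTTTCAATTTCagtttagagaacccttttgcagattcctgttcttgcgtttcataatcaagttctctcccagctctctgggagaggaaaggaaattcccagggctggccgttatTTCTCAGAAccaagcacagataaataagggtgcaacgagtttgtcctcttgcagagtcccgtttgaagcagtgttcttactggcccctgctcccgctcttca
Gbp3 (chr3:142559794-142560093, plus strand): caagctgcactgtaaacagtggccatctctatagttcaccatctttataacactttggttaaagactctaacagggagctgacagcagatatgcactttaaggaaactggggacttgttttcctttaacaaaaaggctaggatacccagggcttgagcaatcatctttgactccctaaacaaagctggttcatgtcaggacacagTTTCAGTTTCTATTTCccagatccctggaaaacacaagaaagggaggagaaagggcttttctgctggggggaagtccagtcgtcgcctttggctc
Tgtp1 (chr11:48992197-48992496, minus strand): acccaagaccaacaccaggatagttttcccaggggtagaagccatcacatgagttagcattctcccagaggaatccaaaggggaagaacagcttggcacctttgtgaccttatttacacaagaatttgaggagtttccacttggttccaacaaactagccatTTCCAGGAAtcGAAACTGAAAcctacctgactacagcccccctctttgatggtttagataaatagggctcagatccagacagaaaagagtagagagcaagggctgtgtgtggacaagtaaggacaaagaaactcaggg
Gbp7 (chr3:142530086-142530385, plus strand): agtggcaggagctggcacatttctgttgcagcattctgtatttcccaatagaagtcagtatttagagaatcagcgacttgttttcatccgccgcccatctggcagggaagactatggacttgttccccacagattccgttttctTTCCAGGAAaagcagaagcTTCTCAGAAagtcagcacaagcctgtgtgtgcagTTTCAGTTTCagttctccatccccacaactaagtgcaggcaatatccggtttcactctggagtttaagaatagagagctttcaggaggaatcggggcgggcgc
Igf1 (chr10:87860861-87861160, plus strand): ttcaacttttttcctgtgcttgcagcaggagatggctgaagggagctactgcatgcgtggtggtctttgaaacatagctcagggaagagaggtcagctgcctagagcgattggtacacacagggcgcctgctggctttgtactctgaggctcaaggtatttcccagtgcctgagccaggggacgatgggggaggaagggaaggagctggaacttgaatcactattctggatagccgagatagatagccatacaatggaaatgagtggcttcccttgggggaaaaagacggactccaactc

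The response element core lay at position -165 from the start in Gbp5, at -45 and -39 in Gbp3, where the 2 matches overlap, at -77 in Tgtp1 and at -53 in Gbp7. The gamma-activated site lay at -245 and -52 in Gbp5, at -88 in Tgtp1 and at -106 and -87 in Gbp7. Igf1 held neither in this window. Of the 9 GTPase genes that the table holds, 9 had the response element core in a promoter and 6 the gamma-activated site. These genes have 10 promoters there, of which 9 held the core and 6 the site. Gbp3 has 2 promoters in the table, and only 1 is shown. Of 21 disease-associated genes listed there, 1 had the core and 0 the site. Over all 27025 genes of the table, 3.99% had the response element core and 9.55% the gamma-activated site in a promoter. The PU.1 site GAGGAAGT and the E-box CACGTG, searched in the same way, were in 0 of the 9 GTPase genes and in 3.69% and 8.09% of all genes of the table. Per promoter, the shares of the 4 motifs over all 32851 promoters were 3.44%, 8.30%, 3.20% and 7.15%. A match describes the letters only.

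In the broader interferon response list, 4 of 25 members tested fell and 0 rose, with a median of -0.63, a share lower that is close to the 11.9% of all tested genes. Stat2, a signal transducer of the interferon receptors, was at 60.2, 42.6 and 28.2 CPM in chronic libraries, against 229 and 164 CPM in peak libraries (-2.18 ± 0.36, adjusted p = 0.00219). Zbp1, a sensor of unusual nucleic acids, was lower by 2.04 on the log2 scale with values of 128, 72.2 and 21.9 CPM in chronic libraries, against 227 and 374 CPM in peak libraries (adjusted p = 0.0215). Isg15, an antiviral ubiquitin-like gene, overlapped between the stages. It was at 427, 191 and 52.6 CPM in chronic libraries, against 169 and 275 CPM in peak libraries (0.01 ± 0.62, adjusted p = 0.995). Isg15 was picked after its values were seen. The number of members lower was 7 without chronic a and without control b, 2 without chronic b and without peak b, 1 without peak a and 0 with the pool as a term, with a median of -0.01. Zbp1 was not called without chronic b, peak a or peak b (adjusted p = 0.0528 to 0.119).

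Chemokine and cytokine genes were called in both directions, 3 higher and 5 lower of 22 tested (median 0.06). Of all tested genes, 9.78% were called higher and 11.9% lower. Cxcl9, which draws T cells and is induced by interferon-gamma, was at 108, 136 and 59.1 CPM in chronic libraries, against 524 and 516 CPM in peak libraries and 0.287 to 1.41 CPM in controls (-2.37 ± 0.34, adjusted p = 0.00102). It stayed far above the controls in every chronic library. Its relative Cxcl10 was at 371, 227 and 88.2 CPM in chronic libraries, against 929 and 511 CPM in peak libraries, and missed the threshold (-1.66 ± 0.68, adjusted p = 0.0953), which it passed without chronic a (adjusted p = 0.0465) and without control a (adjusted p = 0.0287). Ccl4, a chemokine of activated microglia, rose: it was at 1838, 839.9 and 614 CPM in chronic libraries, against 267 and 96.4 CPM in peak libraries (2.60 ± 0.51, adjusted p = 0.00585). Tgfb1, which encodes the cytokine that maintains microglial identity, was at 548, 602 and 333 CPM in chronic libraries, against 167 and 168 CPM in peak libraries and 304 to 519 CPM in controls (1.56 ± 0.32, adjusted p = 0.00673), with 1.49 and 1.41 UMIs per chronic and peak cell. Ccl5 overlapped between the stages (0.42 ± 0.62, adjusted p = 0.652). The counts higher and lower were 6 and 7 without chronic c, 2 and 1 without peak a and 3 and 2 without peak b. Tgfb1 was not called without peak a (adjusted p = 0.0609).

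MHC class II genes and their transactivator differed in how far they moved. Ciita (chr16:10480059-10528418, plus strand), which switches on MHC class II genes, was at 9.29, 12.2 and 3.68 CPM in chronic libraries, against 163 and 111 CPM in peak libraries and 0 to 0.424 CPM in controls (-4.12 ± 0.43, adjusted p = 0.00022). Of 12 MHC class II genes tested, Ciita included, 5 fell and 0 rose (median -0.71, or -2.10 with the pool as a term, also with 5 lower). The share of all tested genes called lower was 11.9%. H2-Ab1, a beta chain gene, was at 1083, 1815 and 564 CPM in chronic libraries, against 3505 and 4484 CPM in peak libraries (-1.79 ± 0.40, adjusted p = 0.0103). Cd74, the invariant chain, was at 18996, 31880 and 3240 CPM in chronic a, b and c, against 8690.5 and 12932 CPM in peak a and b and 49.0 to 131 CPM in controls. Chronic a and b lay above both peak libraries for Cd74 and chronic c below both, so the groups overlapped (0.74 ± 0.66, adjusted p = 0.437), and without chronic c the difference was 1.24 (adjusted p = 0.0305). With the pool as a term, where chronic a and b have no control in their pool, the fold change of Cd74 was -2.54 (adjusted p = 0.138). H2-Aa, an alpha chain gene picked after its values were seen, was at 1998, 3611 and 557 CPM in chronic libraries, against 2844 and 3553 CPM in peak libraries (-0.64 ± 0.56, adjusted p = 0.423). The list's counts higher and lower were 1 and 6 without chronic c, 0 and 3 without chronic a and without control c, and 0 and 1 without peak a and without peak b. H2-Ab1 was not called without peak a or peak b (adjusted p = 0.05005 to 0.0556).

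MHC class I genes gave 8 lower and 1 higher of 16 tested (median -0.84), beside 11.9% lower and 9.78% higher of all tested genes. With the pool as a term, 0 were called and the median was -0.78. Nlrc5, the class I transactivator, was at 22.7, 17.8 and 12.9 CPM in chronic libraries, against 132 and 73.2 CPM in peak libraries (-2.55 ± 0.46, adjusted p = 0.00394). Tap1, the peptide transporter, was at 189, 186 and 109 CPM in chronic libraries, against 348 and 454 CPM in peak libraries (-1.31 ± 0.29, adjusted p = 0.00924). H2-M3, a nonclassical class I gene, rose, with 264, 280.1 and 259 CPM in chronic libraries against 107 and 141 CPM in peak libraries (1.11 ± 0.23, adjusted p = 0.00668). Of the class I genes that fell, H2-Q4, H2-Q6 and H2-Q7 are close copies of each other, so the split of reads between them is uncertain. The number lower was 2 without peak a and without peak b. Nlrc5 was not called without peak a (adjusted p = 0.0704). H2-M3 was not called without peak a (adjusted p = 0.0672). Tap1 was not called without peak b (adjusted p = 0.0582).

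**Figure D2:**
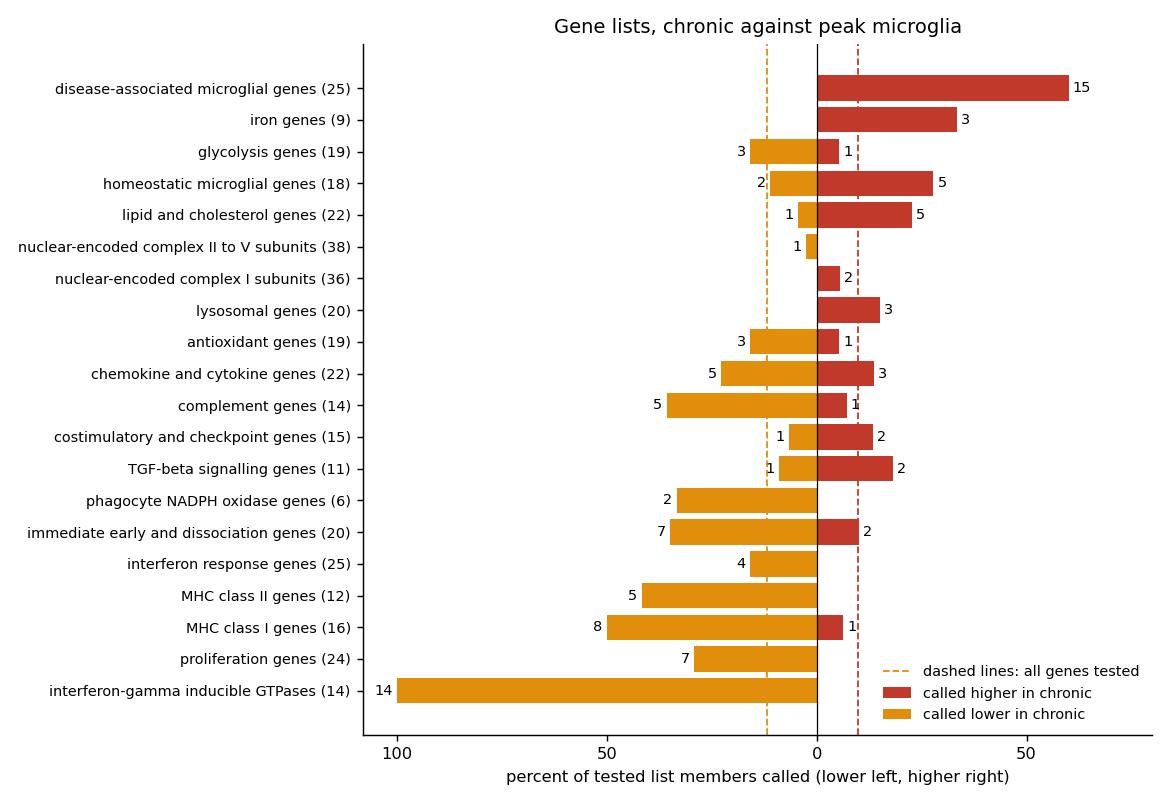
Percent of the tested members of each gene list called higher (right) or lower (left) in chronic than in peak microglia, with the number called at the bar's end and the number tested in brackets. Dashed lines give the same for all genes tested, 9.78% higher and 11.9% lower. The 14 GTPases lie wholly on the lower side and 15 of 25 disease-associated genes on the higher side.

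Of 24 proliferation genes tested, 7 fell, 0 rose and 17 were not called (median -1.25). For comparison, 11.9% of all tested genes were called lower. Without the cells of cluster 2, 5 of 23 fell with a median of -0.67. In the fit of cluster 3 only, 6 of 17 fell with a median of -0.60. In that of cluster 4 only, 1 of 21 fell with a median of -0.62. With the pool as a term, 4 of 24 fell with a median of -1.83. Mki67, a gene of cycling cells, was at 9.29, 11.8 and 3.51 CPM in chronic libraries, against 53.2 and 42.6 CPM in peak libraries and 3.59 to 10.6 CPM in controls (-2.63 ± 0.45, adjusted p = 0.00255). Chronic libraries thus lay at the level of the controls. Top2a, topoisomerase II alpha, and Birc5, survivin, were lower by 2.05 and 2.09 on the log2 scale (adjusted p = 0.00891 and 0.0158). The number lower was 13 without chronic a, 3 without peak b and 2 without peak a. Top2a was not called without peak a (adjusted p = 0.0744). Birc5 was not called without peak a or peak b (adjusted p = 0.0679 to 0.0942).

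The study's title names reverse electron transport, in which electrons run backwards into respiratory complex I. Among 36 complex I subunits encoded in the nucleus, 2 were higher and 0 lower (median 0.27), and of 38 subunits of complexes II to V, 1 fell and 0 rose (median 0.28). The share of complex I subunits called was thus below the 21.7% of all tested genes. Ndufa3 was at 486, 487 and 195 CPM in chronic libraries, against 105 and 166 CPM in peak libraries (1.52 ± 0.42, adjusted p = 0.0242), and Ndufs7 at 219.5, 218 and 145 CPM against 72.2 and 130.4 CPM (0.94 ± 0.31, adjusted p = 0.0493). With the pool as a term, the medians turned to -0.46 for complex I and -0.58 for complexes II to V, with 0 members called in either list. In that fit Ndufa3 was at -0.46 and Ndufs7 at -0.24, neither of them called. Atp5b, a subunit of the ATP synthase, was at 187, 177 and 167 CPM in chronic libraries, against 271 and 526 CPM in peak libraries (-1.17 ± 0.27, adjusted p = 0.0122). The number of complex I subunits higher was 11 without chronic c, 4 without control b, 1 without chronic a, control a or control c, and 0 without chronic b and without peak a. For complexes II to V the counts higher and lower were 6 and 1 without chronic c and 0 and 0 without peak b. Mitochondrially encoded subunits were not among the 22598 features. Ndufs7 was not called without chronic a, chronic b, peak a, control a or control c (adjusted p = 0.0603 to 0.325). Ndufa3 was not called without chronic b, peak a or peak b (adjusted p = 0.0566 to 0.202). Atp5b was not called without peak b (adjusted p = 0.122).

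Of 6 genes of the phagocyte NADPH oxidase, the enzyme that makes superoxide, 2 fell and 0 rose. Of all tested genes, 11.9% were called lower and 9.78% higher. Cybb, its catalytic subunit, was at 147, 159.7 and 159.6 CPM in chronic libraries, against 411 and 300.5 CPM in peak libraries and 5.77 to 18.1 CPM in controls (-1.20 ± 0.34, adjusted p = 0.0271). With the pool as a term the fold change of Cybb was 0.01. Ncf1, a cytosolic subunit, was at 153, 178 and 177 CPM in chronic libraries, against 406 and 319 CPM in peak libraries (-1.10 ± 0.23, adjusted p = 0.00762). Cyba, the partner of Cybb in the membrane, overlapped between the stages (0.42 ± 0.30, adjusted p = 0.323). The number lower was 1 without chronic a, chronic b or peak b and 0 without peak a. Of 19 antioxidant genes, 1 rose and 3 fell, near the 11.9% of all tested genes called lower. Txn1, thioredoxin, was at 169.6, 179 and 122 CPM in chronic libraries, against 396 and 757 CPM in peak libraries (-1.88 ± 0.28, adjusted p = 0.00127). Sod1, superoxide dismutase 1, was at 22.3, 28.6 and 26.9 CPM in chronic libraries, against 73.1 and 66.5 CPM in peak libraries and 22.9 to 27.6 CPM in controls (-1.43 ± 0.20, adjusted p = 0.00086). The one that rose, Gpx1, glutathione peroxidase 1, was at 1356, 1313 and 466 CPM in chronic libraries, against 385 and 479 CPM in peak libraries, and its groups overlapped through chronic c. Antioxidant counts higher and lower were 3 and 3 without chronic c, 2 and 3 without control b, 0 and 3 without chronic a, control a or control c, and 0 and 2 without chronic b, peak a or peak b. Cybb was not called without chronic a, chronic b, peak a or peak b (adjusted p = 0.0517 to 0.23). Gpx1 was not called without chronic a, chronic b, peak a, peak b, control a or control c (adjusted p = 0.0553 to 0.229). Ncf1 was not called without peak a (adjusted p = 0.0898).

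Among 19 glycolysis genes, 1 rose and 3 fell, near the shares of all tested genes, and the median was 0.45, or -0.21 with the pool as a term. Hk3, a hexokinase of leukocytes, was at 57.9, 46.0 and 28.4 CPM in chronic libraries, against 112 and 134 CPM in peak libraries (-1.50 ± 0.27, adjusted p = 0.00406), and Pfkp and Pfkfb3, genes of phosphofructokinase and its activator, were lower by 1.40 and 1.10 on the log2 scale. Pfkl, the liver-type phosphofructokinase, was higher by 0.96 ± 0.28. Counts higher and lower were 9 and 3 without chronic c, 3 and 3 without control b, 0 and 3 without chronic a, 0 and 2 without chronic b and without peak b, and 0 and 1 without peak a. Pfkl was not called without chronic a, chronic b, peak a or peak b (adjusted p = 0.0588 to 0.142). Pfkfb3 was not called without chronic b or peak a (adjusted p = 0.0538 to 0.273). Pfkp was not called without peak a or peak b (adjusted p = 0.064 to 0.0787).

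Of 15 costimulatory and checkpoint genes, 2 rose and 1 fell, a share near the 21.7% of all tested genes called in either direction. Cd274, which encodes the checkpoint ligand PD-L1, was at 52.4, 43.6 and 25.3 CPM in chronic libraries, against 187 and 129 CPM in peak libraries and 7.69 to 11.3 CPM in controls (-1.98 ± 0.29, adjusted p = 0.00125). Lag3, a receptor that binds MHC class II, was at 648, 623 and 517 CPM in chronic libraries, against 219 and 189 CPM in peak libraries (1.55 ± 0.27, adjusted p = 0.00278). Per cell, Lag3 had 1.84 UMIs in chronic and 1.73 in peak microglia. Without chronic c, 3 rose and 2 fell. Complement genes gave 1 higher and 5 lower of 14 tested (median 0.02), beside 9.78% higher and 11.9% lower of all tested genes. Itgam, the CD11b subunit of complement receptor 3, was at 366, 324 and 345 CPM in chronic libraries, against 670.1 and 616 CPM in peak libraries (-0.90 ± 0.22, adjusted p = 0.0161), and C3ar1, the receptor of the C3a fragment, was higher by 1.04 ± 0.26. Serping1, the C1 inhibitor, was at 7.69, 6.73 and 0.351 CPM in chronic libraries, against 38.8 and 47.9 CPM in peak libraries (-3.34 ± 0.67, adjusted p = 0.0063). Complement counts were 4 and 5 without chronic c, 1 and 3 without chronic b, 0 and 2 without peak b and 0 and 1 without peak a. Itgam was not called without chronic b or peak a (adjusted p = 0.0685 to 0.116). C3ar1 was not called without peak a or peak b (adjusted p = 0.0708 to 0.0759).

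The remaining genes of smallest p on the lower side came from several functions. Il15ra, a receptor chain that presents interleukin 15, was at 22.9, 24.3 and 20.6 CPM in chronic libraries, against 82.2 and 107 CPM in peak libraries (-2.07 ± 0.21, adjusted p = 0.00022). Itgal, the alpha chain of the integrin LFA-1, was at 16.1, 15.3 and 6.72 CPM in chronic libraries, against 142 and 141 CPM in peak libraries and at most 1.15 CPM in controls (-3.53 ± 0.38, adjusted p = 0.000257). Fgl2, a prothrombinase and immune regulator, was at 96.3, 91.1 and 88.2 CPM in chronic libraries, against 445 and 581 CPM in peak libraries (-2.48 ± 0.33, adjusted p = 0.000645). Samhd1, a nucleotide hydrolase that restricts viruses, and Hmgb2, a chromatin protein, were at control levels in chronic disease: Samhd1 had 116, 92.2 and 79.9 CPM in chronic libraries, against 359 and 432 CPM in peak libraries and 74.1 to 109 CPM in controls. Lpp and Themis2 fell by 1.95 and 1.97 on the log2 scale.

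Of 20 immediate early and dissociation genes tested, 2 rose and 7 fell (median -0.32), beside 9.78% higher and 11.9% lower of all tested genes. Jun, an AP-1 subunit, was at 111, 102 and 125 CPM in chronic libraries, against 671 and 415 CPM in peak libraries, but control b, from the pool of the peak libraries, was at 653 CPM while controls a and c were at 173 and 186 CPM (-2.27 ± 0.47, adjusted p = 0.00729). Fosb was at 1.07, 0.374 and 0.175 CPM in chronic libraries, against 20.9 and 15.5 CPM in peak libraries, and at 6.32 CPM in control b against 0 and 0.0849 CPM in controls a and c. Atf3, a stress-induced factor gene, went the other way, with 204, 169 and 156 CPM in chronic libraries, against 58.6 and 37.3 CPM in peak libraries and 24.9 to 37.8 CPM in controls (1.88 ± 0.28, adjusted p = 0.00125). The summed level of the list was 2300 to 2704 CPM in chronic, 3097 to 4139 CPM in peak and 2440 to 3867 CPM in control libraries. Its part in the other results was not tested. Counts higher and lower were 4 and 8 without chronic c, 1 and 5 without chronic b, 2 and 0 without peak a and 1 and 6 without peak b, and 1 and 0 with the pool as a term. Jun was not called without peak a (adjusted p = 0.0949). Fosb was not called without peak a (adjusted p = 0.0747).

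Levels of marker genes of other cell types also differed between the stages. Sums cover the list members found in the matrix, 6 of 8 for T cells, 4 of 5 for B cells and 4 of 5 for erythrocytes. T cell genes came to 4.59 to 13.6 CPM in chronic and 3.79 to 5.96 CPM in peak libraries. Natural killer genes came to 1.11 to 5.24 CPM in chronic and 0.474 to 0.953 CPM in peak libraries. Monocyte genes came to 131 to 331 CPM in chronic and 172 to 238 CPM in peak libraries, and of 7 tested, 1 was higher and 5 lower, among them Plac8 with 12, 9 and 12 UMIs in chronic and 37 and 215 UMIs in peak libraries. Border macrophage genes came to 119 to 159 CPM in chronic and 83.4 to 146 CPM in peak libraries, and of 4 tested, 2 were higher (Pf4 and Ms4a7) and 1 lower (Stab1), with a median of 2.55, with Lyve1 and Cd209f at 0 in both and Cd163 and F13a1 at 0 in the peak libraries. Neural genes were higher in chronic libraries: neuron markers came to 5.92 to 14.8 CPM in chronic, 0.477 to 0.632 CPM in peak and 5.35 to 12.4 CPM in control libraries, with Nefl and Tubb3 at 0 in the peak libraries, and 4 of 4 tested were called higher. Of 7 oligodendrocyte and 7 astrocyte genes, 4 each were higher in chronic microglia, and the summed oligodendrocyte level was 113 to 167 CPM in chronic and 86.0 to 93.0 CPM in peak libraries. The astrocyte sum was 117 to 239 CPM in chronic and 146 to 229 CPM in peak libraries. Neutrophil sums were 168 to 264 and 162 to 349 CPM, dendritic cell sums 113 to 144 and 53.9 to 72.4 CPM, B cell sums 17.6 to 31.7 and 10.7 to 14.7 CPM, endothelial sums 28.5 to 35.2 and 13.1 to 36.0 CPM and erythrocyte sums 0.223 to 1.33 and 0 to 0.158 CPM in chronic and peak libraries. Among 11 TGF-beta signalling genes, 2 rose and 1 fell (median -0.11), 2 and 4 without chronic c, 2 and 0 without chronic a and without chronic b, and 1 and 0 without peak a. Of all tested genes, 9.78% were called higher and 11.9% lower. Control marker sums lay above both stages for T cell genes (91.7 to 107 CPM) and dendritic cell genes (229 to 496 CPM). The same held for B cell genes (35.6 to 69.6 CPM), and neutrophil sums of controls were 186 to 398 CPM. Monocyte sums (19.6 to 42.5 CPM) and natural killer sums (0 to 0.0968 CPM) of controls lay below both stages. Cd79b alone gave 17.5, 31.7 and 22.7 CPM of the B cell sums in chronic a, b and c. How much of a sum came from the microglia themselves, and the part of other cells in the results, was not tested.

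Because peak cells held more UMIs, a gene can be higher relative to all RNA and not higher per cell. Over all 11078 genes tested, 617 (5.57%) had more UMIs per cell in chronic than in peak microglia, so a lower value per cell follows from the depth gap for most genes. All 1318 genes called lower were lower per cell too, which that gap nearly fixes. Of the 1083 genes called higher, 450 (41.6%) also had more UMIs per cell in chronic microglia, and in 204 of them every chronic library lay above both peak libraries. In 344 of the 1083, every chronic library lay below both peak libraries per cell. Over all 11078 genes tested, every chronic library lay above both in 215 and below both in 9499. All 12 higher genes of the naming rule had more UMIs per cell in every chronic library than in both peak libraries. Igf1 had 0.424 UMIs per chronic cell and 0.0186 per peak cell, Fcrls 3.76 and 0.311, and Spp1 18.0 and 1.97. P2ry12, by contrast, had 2.55 UMIs per chronic cell and 2.48 per peak cell. A UMI total depends on cell size, RNA content and capture together, and these cannot be told apart here.

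**Figure D3:**
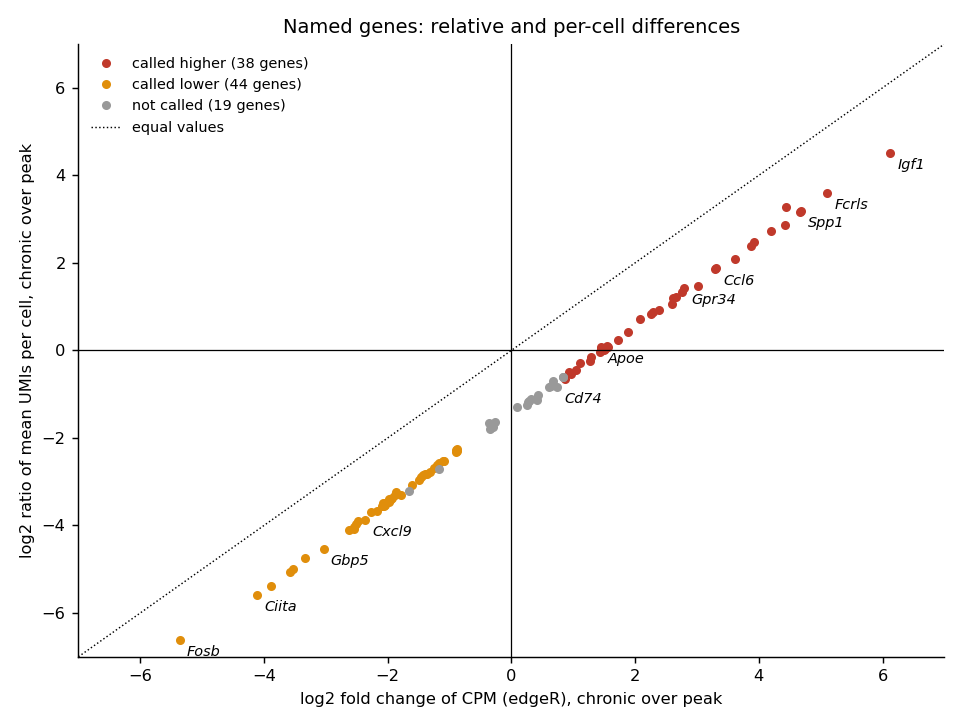
Log2 ratio of mean UMIs per cell, chronic over peak, against the log2 fold change of CPM for the 101 named genes. Apoe, at a log2 fold change of 1.45, lies close to the horizontal line of equal UMIs per cell (112 and 106), while Igf1, Fcrls and Spp1 lie above it. Genes called lower lie below it, as do all but 5.57% of all tested genes, since chronic cells held fewer UMIs.

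Shares of cells were compared at equal depth, after each cell was thinned to 1500 UMIs and shallower cells were left out, 169, 174 and 67 cells in chronic and 8 and 21 cells in peak libraries. A share has an exact binomial interval (95%, counting error only). At least 1 UMI of Spp1 was found in 56.8%, 43.2% and 47.2% of chronic microglia, against 13.8% and 4.54% of peak microglia. Annotated T cells of the chronic resident libraries, which serve as a comparison for these genes and had a median of 3109.5 UMIs, gave 23.1% for Spp1. The part of free RNA, doublets or expression by T cells in that share was not tested. For Gpnmb the shares were 18.3%, 20.5% and 8.73% of chronic microglia, against 2.09% (1.01 to 3.81) and 2.34% (1.34 to 3.78) of peak microglia and 3.17% of chronic T cells. Peak shares of Gpnmb were near that of chronic T cells and above the 0.0313% to 0.0878% of control microglia. These T cells come from chronic libraries, so no background for the peak libraries is read from them. Igf1 was found in 15.1%, 8.49% and 7.24% of chronic microglia, against 0.628% and 0.146% of peak microglia and 2.26% of chronic T cells. Without thinning, Igf1 was in 24.9%, 15.6% and 15.6% of chronic and 1.85% and 0.426% of peak microglia.

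Lower genes showed the reverse order at equal depth. Cxcl9 was found in 5.29% (4.30 to 6.42), 6.78% and 1.85% of chronic microglia, against 24.5% (20.7 to 28.6) and 23.9% of peak microglia, at most 0.176% of control microglia and 0.452% of chronic T cells. Cxcl10 was in 7.35%, 5.34% and 1.80% of chronic microglia, against 26.4% and 18.3% of peak microglia and 1.36% of chronic T cells. Gbp5 was in 4.28%, 3.90% and 2.25% of chronic microglia, against 25.9% and 22.99% of peak microglia, and chronic T cells gave 4.07%. Ciita was in 0.723%, 1.55% and 0.521% of chronic microglia, against 20.1% and 12.3% of peak microglia, and chronic T cells gave 1.81%. The chronic shares of Gbp5 and Ciita were near or below those of T cells, which rest on 9 and 4 of 221 cells and may themselves carry interferon-induced RNA, so no expression is read from these chronic shares alone. Control microglia gave 0 to 0.0625% for Ciita and 1.69% to 2.63% for Gbp5. The peak resident libraries held only 16 annotated T cells, and none of them had a UMI of these 4 genes after thinning, with an exact interval up to 20.6%. Mki67 was in 0.779%, 1.01% and 0.260% of chronic microglia, against 3.77% and 3.51% of peak microglia, with 1.81% of chronic T cells, which can divide themselves. Cd74 was in 96.8%, 98.7% and 69.7% of chronic microglia, against 97.7% in both peak libraries, with 57.9% of chronic T cells. In the 3 groups, P2ry12 was in 42.6%, 53.2% and 63.7% of chronic, 35.6% and 20.9% of peak and 94.6% to 97.4% of control microglia, and chronic T cells gave 4.07%.

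**Figure D4:**
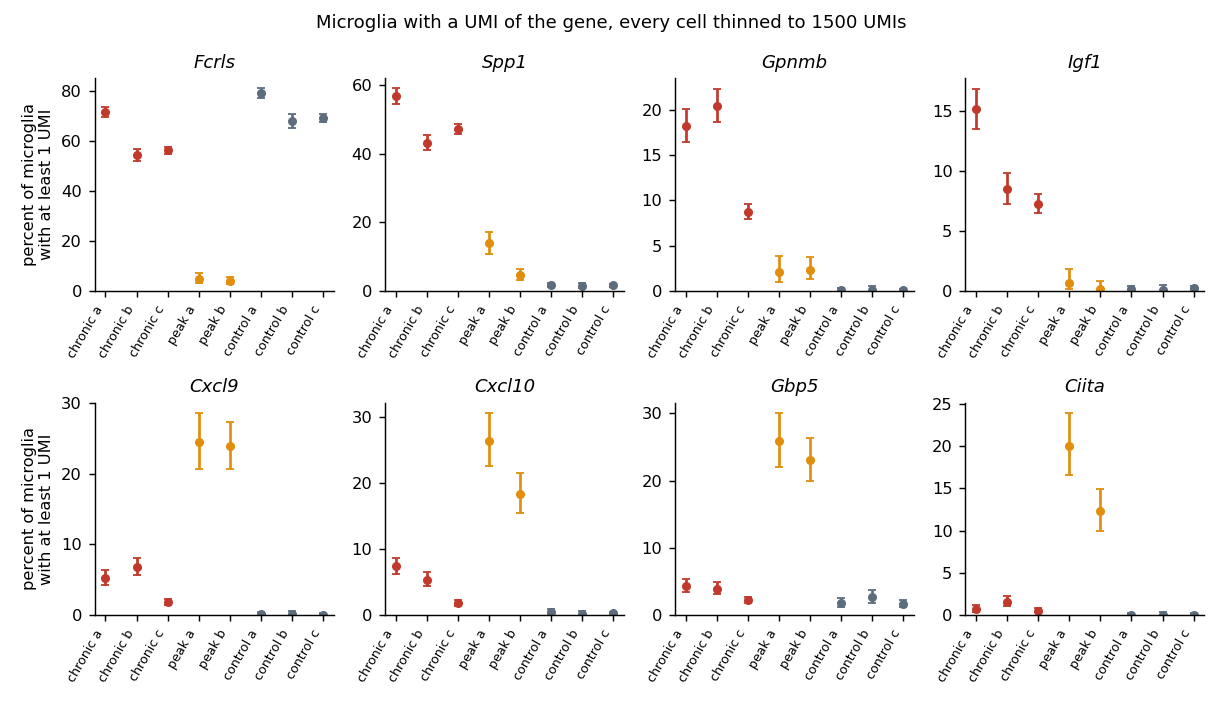
Percent of microglia with at least 1 UMI of each gene after every cell was thinned to 1500 UMIs, for 3 chronic, 2 peak and 3 control libraries, with 95% exact binomial intervals. Fcrls, Spp1, Gpnmb and Igf1 were found in more chronic than peak cells, and Cxcl9, Cxcl10, Gbp5 and Ciita in more peak than chronic cells, with Cxcl9 at 24.5% and 23.9% at the peak.

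The pools that hold a control allow the stages to be set against a control sequenced beside them: chronic c over control c in pool B, and each peak library over control b in pool C, as log2 ratios of CPM + 1. Of the 1083 genes called higher, chronic c lay above both peak libraries on this scale for 892 (82.4%) and below both for 38, and of the 1318 called lower it lay below both for 1043 (79.1%) and above both for 26. Over all tested genes it lay above both for 34.5% and below both for 37.2%. The calls used the same chronic c and peak libraries, so these shares describe the effect of setting them against their controls and are no independent test. The genes of the naming rule, chosen for groups that do not overlap, kept their order in 12 of 12 and 12 of 12 cases. Among other named genes that were called, chronic c lay between the peak libraries for Cybb, Jun, Fth1, Sall1, Ndufs7 and Slc11a2, and below both for Ndufa3 and Gpx1, which were called higher. Igf1 was at 4.77 in chronic c, against 0.84 and -0.74 in peak a and b. Fcrls was at -0.19 in chronic c, against -4.12 and -4.98 in peak a and b, so it stayed near its control in chronic c and far below it at the peak. Ciita was at 1.72 in chronic c, against 7.36 and 6.81 in peak a and b, and Gbp5 at 0.52, against 4.43 and 4.11. With the pool as a term in the fit, 4 of the 12 higher genes (Fcrls, Crip1, Cd300a and Slc40a1) and 3 of the 12 lower genes (Ciita, Gbp5 and Gbp3) were called. Of the 82 called genes that the naming rule, its list part and the chosen set gave, not all of them printed here, 15 were called with the pool as a term, 61 were not, and 6 changed sign. Signs were kept for 11 of the 12 higher and 12 of the 12 lower genes of the rule. The exception was Ms4a7 at -0.68 (adjusted p = 0.963), whose UMIs in the controls were at or near 0. These within-pool values rest on 1 chronic library and 1 control library per pool.

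**Figure D5:**
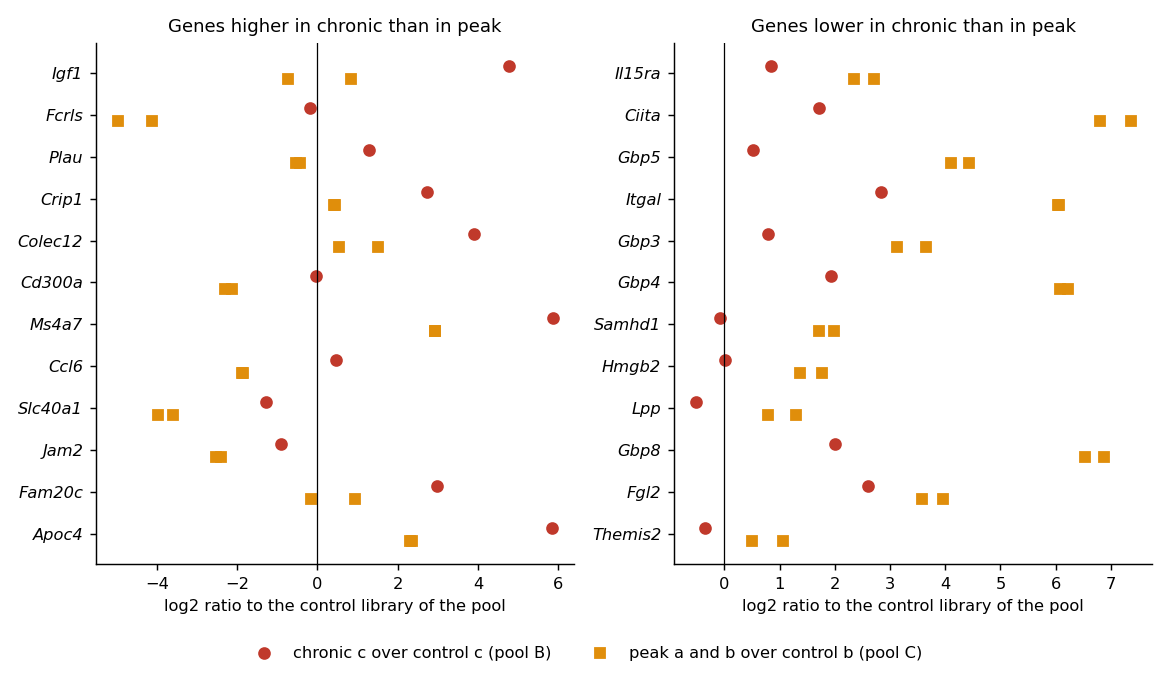
Log2 ratio of CPM + 1 to the control library of the same sequencing pool for the 12 higher and 12 lower genes of the naming rule: chronic c over control c (circles) and peak a and b over control b (squares). The circle lies right of both squares for every gene on the left and left of both squares for every gene on the right, as for Igf1 at 4.77 against 0.84 and -0.74.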

How the data were processed

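Single-cell RNA libraries of spinal cord cells were sorted as resident or infiltrating. The deposited matrix holds raw UMI counts per gene and cell, made with Cell Ranger 3.1.0 and R 4.1.3 on GRCm38/mm10, per the submitters' processing notes, which give no order of steps. The deposited cell table gives the authors' cell type, cluster, pool and gate, the percent of mitochondrial UMIs (at most 5 in the deposited cells) and the log10 of each cell's total, which matched the matrix. The deposited table marks 0 cells as doublets, and no cell was removed here. Libraries were lettered by sorted name.

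UMIs of annotated microglia were summed per library and tested with edgeR 4.0.16 (quasi-likelihood F test, limma 3.58.1, R 4.3.3): genes kept by filterByExpr, TMM scaling, 3 group means over 8 resident libraries with 5 residual degrees of freedom, contrast chronic minus peak, Benjamini-Hochberg over 11078 genes, adjusted p under 0.05. The biological coefficient of variation was 21.4%. For a single value, 3 libraries against 2 allow an exact permutation p of 0.1 at least. CPM of single genes are TMM-scaled and marker sums are scaled by library size. Named genes are up to 12 per direction of smallest p, up to 4 members per list, and a chosen set. The first need a log2 fold change of at least 1 in size, average log2 CPM of at least 5 and groups without overlap. List members are called ones of smallest p first, then uncalled ones of highest average CPM. Ribosomal protein genes, predicted genes, Xist, Tsix and Y-linked genes were not named. The members and lists were chosen with earlier results of these data known. The fit was tested on simulated data. Alternatives were DESeq2 1.42.0, other scalings, no filter, pool as a term, thinning to 1500 UMIs, other cell sets and each library left out. Intervals cover counting error only. Python 3.11.15, numpy 2.4.6, scipy 1.17.1 and pandas 2.3.3 were used. Promoters are from RefSeq. A gene of the chosen set is not reported here.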

Additional observations from a re-analysis of the deposited data

How the results depend on the processing

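The 24 genes of the naming rule kept their direction and their call in every alternative run except the pool as a term and microglia of cluster 4 only. With the pool as a term 7 kept the call and Ms4a7 turned sign, and in cluster 4 only 21 kept the call. The 24 genes were chosen from the same libraries for small p and groups that do not overlap, so this is no independent test. Of all 2401 genes called in the main fit, 1187 kept the call without chronic b. Counts of genes called, higher and lower were 70, 44 and 26 with the pool as a term, 950, 442 and 508 with cells thinned to equal UMIs and 452, 191 and 261 in cluster 4 only, against 2401, 1083 and 1318. Leaving out 1 library gave 429 to 3558 called, 234 to 1673 higher and 195 to 1885 lower. DESeq2 called 2414 genes, 2137 of them shared with edgeR. Scaling by library size only moved the median of all genes to -0.13 and called 764 higher and 1233 lower. Cluster 3 only, which called 1715, and cluster 4 only were chosen after seeing the data. Log2 fold changes that turned sign with the pool as a term were -0.68 for Ms4a7, -0.45 for Ctss, 0.0087 for Cybb, -0.57 for Cyba, -0.56 for Gpx1, -0.46 for Ndufa3, -0.24 for Ndufs7, -0.46 for Ndufa13, -0.23 for Ndufc2, -0.58 for Cox8a, -0.26 for Cox4i1, -0.40 for Atp5e, -0.26 for Ftl1, 0.26 for Tmem119, 0.57 for Cx3cr1, 0.12 for Sall1 and -2.54 for Cd74. In cluster 4 only they were -0.0802 for Cyba, -0.19 for Ndufa13, -0.33 for Cox8a, -0.24 for Cox4i1, -0.43 for Ftl1 and -1.004 for Ccl5. In cluster 3 only they were -0.42 for Ftl1, -0.45 for Itgax, 0.0621 for Tmem119 and 0.13 for Cxcl10. With thinned cells they were -0.26 for Ftl1 and -0.0944 for Itgax, with library size only -0.0233 for Ftl1 and with all resident cells 0.73 for Cfp. Over the fits that left out 1 library, the range was -0.71 to 0.22 for Rac2, -0.0435 to 0.72 for Cox4i1, -0.0682 to 0.33 for Ftl1, -0.17 to 0.87 for Itgax and -0.0907 to 0.90 for Ccl5. The cause was not tested. The thinned fit rests on fewer UMIs by construction, the cluster fits on fewer cells and the pool fit on 2 residual degrees of freedom. No paired analysis was possible because the deposited cell table names libraries without the replicate numbers of the labels. Peak libraries, with 486 and 704 microglia, limit the depth of rare genes.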

Other observations

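Annotated microglia were also sorted in the infiltrating gate of chronic EAE, which the comparison of stages did not use. Chronic infiltrating library b held 1915 microglia with 6312868 UMIs and chronic infiltrating library c held 74 microglia with 235026 UMIs. By library size, Igf1 was at 96.3 and 102 CPM in chronic infiltrating b and c, against 3.81 and 0.474 CPM in peak resident a and b. Fcrls was at 877 and 681 CPM in chronic infiltrating b and c, against 49.1 and 21.95 CPM in peak resident a and b. Ciita was at 13.1 CPM in chronic infiltrating b and had 1 UMI in c, against 171 and 96.0 CPM in peak resident a and b. For the 12 higher and 12 lower genes of the naming rule, chronic infiltrating b lay beyond both peak resident libraries, on the side of the chronic resident libraries. The rule chose these genes for small p and no overlap with the same peak libraries, so this count is no independent test. Whether chronic infiltrating b and chronic resident b came from the same mice is unknown, so they may not be independent of each other. Cd74 was at 26393 CPM in chronic infiltrating b and 3268 CPM in c, and thus varied between these libraries as it did between chronic resident b (26273 CPM) and c (3085 CPM). No test was made over these values, since gate and library differ together.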
